A study of Homo sapiens with 12 samples.

Results

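RUNX2, SP7, DLX3, DLX5, MSX2, ALPL, SPARC, SPP1, TNFRSF11B and POSTN are genes by which cells of the osteoblast lineage are recognised. They are 10 of the 28306 gene symbols in the tables and were taken by symbol, each on the transcript model that drew the largest sum of fragments across 12 libraries. Their RNA was followed in MG63, a human osteosarcoma line, with PC3, a line from a prostate adenocarcinoma, as the reference line of another lineage. Both lines were unmodified (labelled WT) and were transfected for 72 h with 10 nM of a control siRNA (siControl), an siRNA against LARP4A (siLARP4A) or an siRNA against LARP4B (siLARP4B). Lipofectamine RNAiMAX was the carrier in all 6 groups, and siControl cells received it too. Poly(A) RNA was sequenced from 2 libraries per group, described in the series text as biological replicates. The targets belong to the La-related protein family, which binds RNA, and the study asks what each does in prostate cancer and osteosarcoma cells. The sequences and the number of siRNAs per target are not given in the sources used here, so an effect of the target and an effect of the particular siRNA cannot be told apart.

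Osteoblasts arise from mesenchymal precursors. RUNX2, with its partner CBFB, and then SP7 (osterix) switch the precursors to the bone program, and the homeobox factors DLX3, DLX5 and MSX2 act around them. Maturing cells display the phosphatase ALPL, lay down SPARC (osteonectin), SPP1 (osteopontin) and POSTN (periostin) in the matrix, and secrete TNFRSF11B (osteoprotegerin), the decoy receptor that keeps RANKL from osteoclast precursors. MG63 cells are used as a model of early osteoblast-like cells.

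The library totals behind the deposited values ran from 16950119 to 24864977 fragments. The siRNA targets fell in their own groups. LARP4, the symbol for LARP4A, went from 963 and 1056 fragments in MG63 siControl to 240 and 264 in MG63 siLARP4A, and from 2214 and 2408 to 381 and 305 in PC3. LARP4B went from 1040 and 1119 fragments to 321 and 359 in MG63 siLARP4B, and from 1091 and 1183 to 224 and 185 in PC3. LARP4 was higher in MG63 siLARP4B (1353 and 1416 fragments) than in MG63 siControl, by 0.44 on the log2 scale (edgeR, adjusted p = 5.22e-06). The lines carried markers of their labels. Summed FPKM (fragments per kilobase of model and per 1000000 fragments of the library) of 13 prostate and epithelial markers was 1301 and 1329 in PC3 siControl and 80.4 and 81.4 in MG63 siControl. In MG63 siControl 5 of the 13 were at 1 FPKM or above, led by the keratins KRT18 (40.1 FPKM, against 262.8 in PC3) and KRT8 (29.7, against 205) and by HOXB13 (7.12, against 155.1). Of 9 tested, 7 were lower in MG63 than in PC3 (edgeR) and 2 were higher. EPCAM and CDH1 of this list, picked after their values were seen, had 0 fragments and 1 fragment, respectively, over both MG63 siControl libraries. This pick does not speak for the members that were detected or higher in MG63. Summed FPKM of 8 mesenchymal markers was 3994 and 3996 in MG63 siControl and 579.9 and 590.4 in PC3 siControl, led in MG63 by VIM (2972 FPKM), S100A4 (351.3) and FN1 (306.7). Of 25 genes of bone matrix and mineralization, 15 were at 1 FPKM or above in MG63 siControl and 4 had 0 fragments in both libraries. Those 4 were IBSP, DMP1, MEPE and OMD. SOST, an osteocyte gene, had 1 fragment over both, and PHEX, a peptidase gene of the same list, was detected in each. BGLAP (osteocalcin) was at 6.44 and 7.76 FPKM, but a read-through transcript with PMF1 covers it, so its fragments may come from either. The labels give no batch or run.

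In MG63 siControl cells the 10 genes ranged from among the most abundant RNAs to none detected. SPARC was at 720.1 and 746.7 FPKM in the siControl libraries, rank 61 of 26415 genes, and took 0.253% of all fragments. TNFRSF11B followed at 60.8 and 56.9 FPKM, and POSTN at 30.5 and 32.4. The homeobox factors came next, DLX3 at 6.27 and 6.22 FPKM and MSX2 at 2.58 and 2.90. ALPL was at 0.545 and 0.578 FPKM, and RUNX2, the master regulator of the lineage, at 0.178 and 0.140, ranks 12939 and 14976. Each of these 7 was separated from the next in the order, since the libraries of neighbours did not overlap. SP7, DLX5 and SPP1 had 0 fragments in both MG63 siControl libraries. For each of them 0 of 37187079 fragments allows a level of up to 0.0807 FPM (fragments per 1000000 of the library), counting error only.

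**Figure D1:**
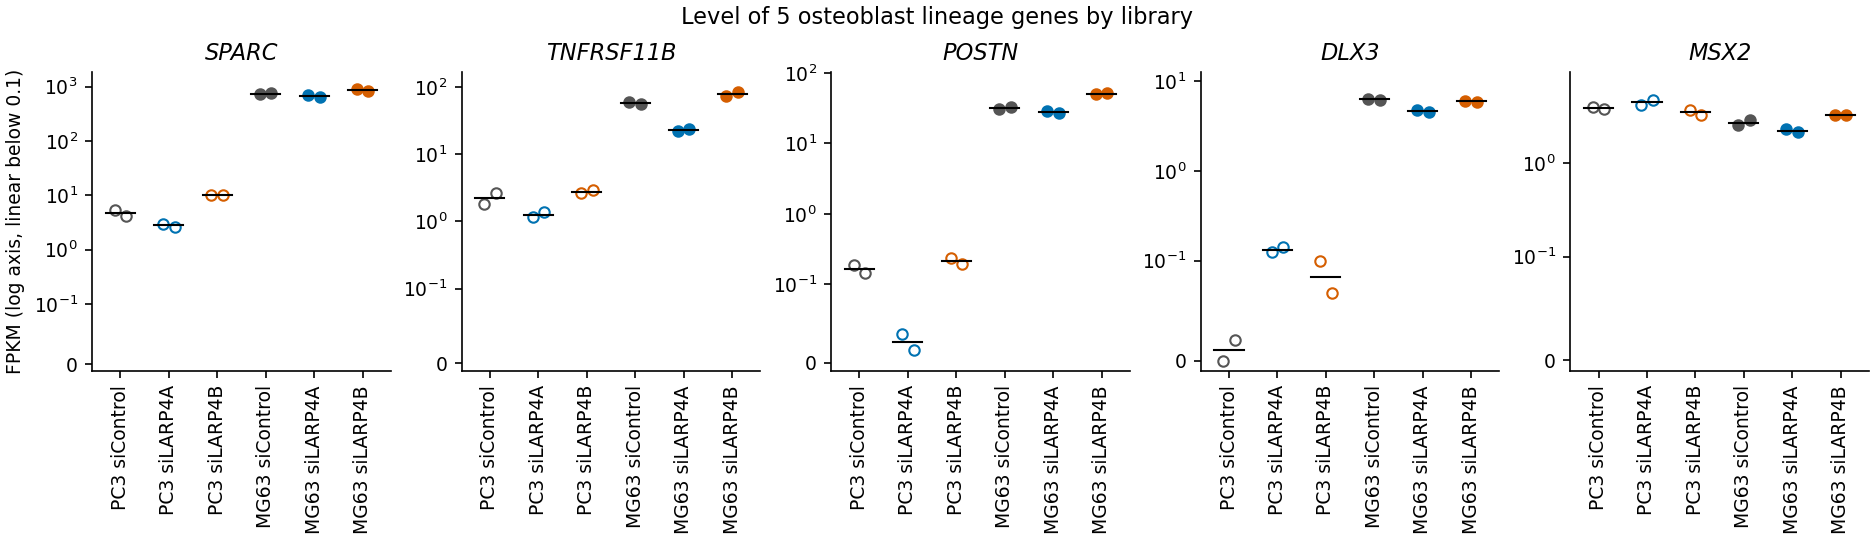
FPKM of SPARC, TNFRSF11B, POSTN, DLX3 and MSX2 in each of the 12 libraries, on a log axis that is linear below 0.1; open circles are PC3, filled circles MG63, and bars the mean of 2 libraries. SPARC, TNFRSF11B, POSTN and DLX3 lie higher in each MG63 library than in any PC3 library, while MSX2 lies lower in MG63 siControl than in PC3 siControl.

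Between the lines, the matrix and secreted genes stood far apart, and the transcription factors were mixed. SPARC had 604 fragments over the 2 PC3 siControl libraries against 94164 in MG63, a ratio of 155 in FPM (exact 95% interval from 143 to 168). POSTN had 20 against 3866 fragments, a ratio of 192 (from 124 to 315), and TNFRSF11B had 172 against 4566, a ratio of 26.4 (from 22.7 to 30.9). DLX3 had 1 fragment in PC3 against 604 in MG63, a ratio of 601 whose interval, 107 to 23779, is wide because of the single fragment. ALPL had 4 against 53 fragments, a ratio of 13.2 (from 4.86 to 50.2). These intervals cover counting error and not the spread between libraries.

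RUNX2 was not higher in MG63 than in PC3. PC3 siControl had 25 and 29 fragments of RUNX2 (0.248 and 0.272 FPKM) and MG63 siControl had 18 and 15. The difference of -0.55 (SE 0.37) on the log2 scale did not pass the test (edgeR, adjusted p = 0.171). MSX2 was lower in MG63, at 104 and 123 fragments against 160 and 161, by 0.35 on the log2 scale (edgeR, adjusted p = 0.0221). That call was lost with DESeq2 (adjusted p = 0.119), with edgeR without PC3 siControl replicate 1 (adjusted p = 0.128) and with edgeR without MG63 siControl replicate 1 (adjusted p = 0.168). Of the 10 genes, 7 had enough fragments to be tested. Of these, 5 were higher and 1 was lower in MG63 siControl than in PC3 siControl, where 81.8% of the 15668 tested genes differed between the lines, 39.7% of them higher and 42.1% lower in MG63 as shares of all tested genes. A gene tested only because it is high in 1 line had to differ, so those counts describe the genes and support nothing further.

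In MG63, TNFRSF11B changed in opposite directions with the 2 siRNAs. POSTN did so too by edgeR, but its fall with siLARP4A was small (-0.17) and was not called with DESeq2 or limma. With siLARP4A, RUNX2 and ALPL were higher than with siControl, and TNFRSF11B, DLX3 and POSTN were lower. Among these siLARP4A calls, only that of TNFRSF11B held in each of the 21 alternatives. DESeq2 called 1 lineage gene higher and 1 lower with siLARP4A, and gave ALPL no adjusted p. With siLARP4B, POSTN, TNFRSF11B and SPARC were higher, and no lineage gene was called lower. Of the 7 tested genes, siLARP4A therefore raised 2 and lowered 3, where 14.5% of the tested genes were called higher, 11.9% lower and 26.4% in either direction. siLARP4B raised 3 and lowered 0, where 18.8% of the tested genes were called higher, 16.3% lower and 35.1% in either direction. At an unadjusted p under 0.05, edgeR gave 4 higher and 0 lower with siLARP4B. limma called 1 gene lower, ALPL (adjusted p = 0.0157). Both comparisons use the same siControl libraries, so the values of the 2 siRNAs are given side by side and are not independent. In such bulk RNA, fewer cells with a program and less RNA per cell cannot be told apart.

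**Figure D2:**
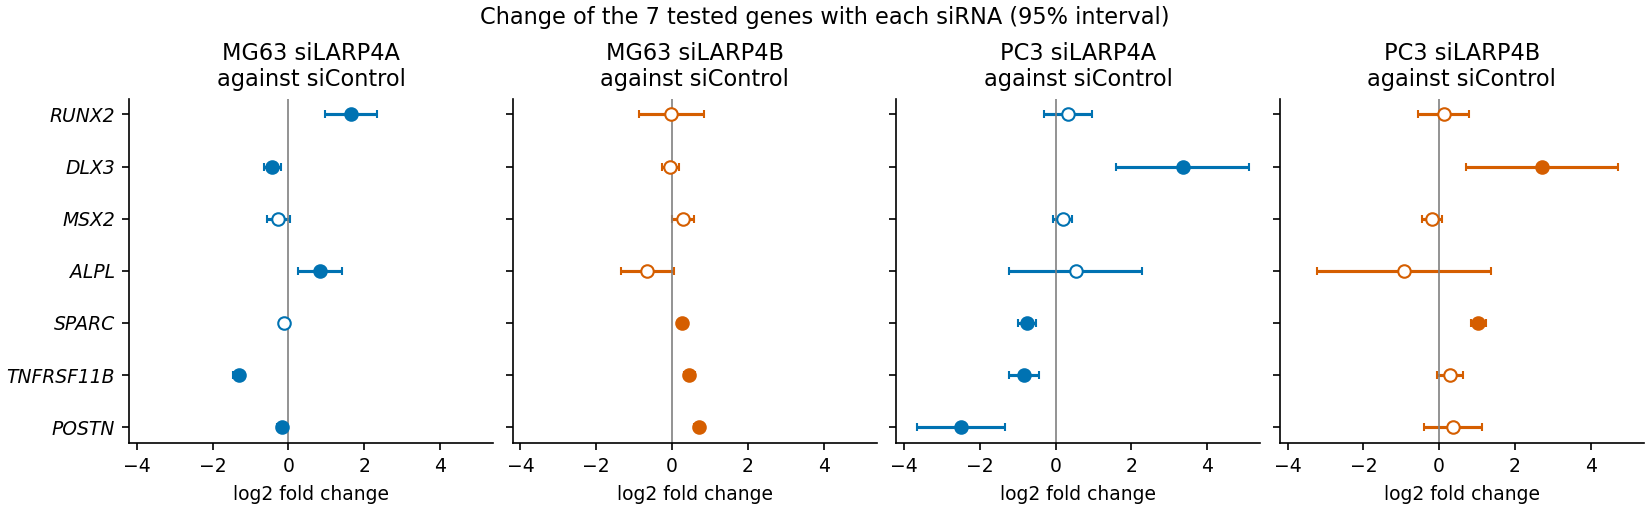
Fitted log2 fold change of the 7 tested genes with its 95% interval for each siRNA against siControl in each line; filled points passed the edgeR test at an adjusted p of 0.05 and open points did not. In MG63, TNFRSF11B falls by 1.32 with siLARP4A and rises by 0.46 with siLARP4B, and the intervals are widest for genes with few fragments, such as DLX3 and ALPL in PC3.

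In MG63, RUNX2 and ALPL rose with siLARP4A, and SPARC, POSTN and TNFRSF11B rose with siLARP4B. Sequences around the starts of 4 of these genes are shown, all but TNFRSF11B, chosen after their values were seen. They are 300 bases from RefSeq (GRCh38.p14), 250 before the start and 50 after it, written along the gene's strand. RUNX2 has a distal start at chr6:45328080-45328379 (+), which serves the bone isoform, and a proximal start at chr6:45422025-45422324 (+), the start of the model used. The windows of the other genes are chr1:21509173-21509472 (+) for ALPL, chr5:151686866-151687165 (-) for SPARC and chr13:37598719-37599018 (-) for POSTN. Capitals mark letters that match a RUNX core (TGTGGT), an AP-1 site (TGANTCA) or a TATA box (TATAAA), each searched on both strands.
RUNX2 distal start: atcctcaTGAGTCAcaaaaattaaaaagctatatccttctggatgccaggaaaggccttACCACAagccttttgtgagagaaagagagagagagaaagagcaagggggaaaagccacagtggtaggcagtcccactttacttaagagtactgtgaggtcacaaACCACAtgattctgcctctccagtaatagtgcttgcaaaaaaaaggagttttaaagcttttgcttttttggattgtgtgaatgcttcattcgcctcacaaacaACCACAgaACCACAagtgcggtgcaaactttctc
RUNX2 proximal start: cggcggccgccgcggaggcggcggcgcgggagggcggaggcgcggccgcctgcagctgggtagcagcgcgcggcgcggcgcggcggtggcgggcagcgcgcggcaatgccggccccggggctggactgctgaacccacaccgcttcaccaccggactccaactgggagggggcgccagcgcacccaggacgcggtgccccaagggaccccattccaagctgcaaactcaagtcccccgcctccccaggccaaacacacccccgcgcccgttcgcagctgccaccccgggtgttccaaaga
ALPL: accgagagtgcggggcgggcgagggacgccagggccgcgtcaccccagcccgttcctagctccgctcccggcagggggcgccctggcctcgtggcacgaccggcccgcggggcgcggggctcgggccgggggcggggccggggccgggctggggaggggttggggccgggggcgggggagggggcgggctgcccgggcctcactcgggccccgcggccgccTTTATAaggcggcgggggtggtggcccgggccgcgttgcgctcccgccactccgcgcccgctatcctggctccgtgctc
SPARC: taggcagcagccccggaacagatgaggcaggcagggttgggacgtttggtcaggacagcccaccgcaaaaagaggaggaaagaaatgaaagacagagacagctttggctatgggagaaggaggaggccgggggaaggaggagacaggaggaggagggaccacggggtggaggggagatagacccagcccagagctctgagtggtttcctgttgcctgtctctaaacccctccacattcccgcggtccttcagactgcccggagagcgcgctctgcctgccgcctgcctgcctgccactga
POSTN: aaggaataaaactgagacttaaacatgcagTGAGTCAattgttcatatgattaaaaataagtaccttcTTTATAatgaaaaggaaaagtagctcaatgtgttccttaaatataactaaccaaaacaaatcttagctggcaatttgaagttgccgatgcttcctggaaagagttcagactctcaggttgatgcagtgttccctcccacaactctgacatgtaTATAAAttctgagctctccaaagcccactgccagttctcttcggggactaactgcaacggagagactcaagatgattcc
No matches overlap. The distal RUNX2 window holds 4 RUNX cores and 1 AP-1 match, and the proximal window holds none of the 3 motifs. The ALPL window holds 1 TATA box, while the windows of 2 other ALPL starts (21508984 and 21551270) hold none of the 3 motifs. The models from the 3 ALPL starts drew up to 190, 191 and 189 fragments, so its starts were not told apart either. Of the matrix genes, the POSTN window holds 1 AP-1 match and 2 TATA boxes and the SPARC window none. Of 35116 RefSeq promoters of this length, 13.1% hold a RUNX core, 7.71% an AP-1 match and 11.5% a TATA box. GC content was 42.7% at the distal RUNX2 start, 76.0% at the proximal start, 82.3% for ALPL, 61.3% for SPARC and 39.0% for POSTN, against a median of 58.7%. A match is a run of letters and was not tested as a binding site. The counts do not separate starts, since models from the distal RUNX2 start drew up to 356 fragments and those from the proximal start 360, and exons shared by both are counted in each.

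Among the transcription factors, RUNX2 (chr6:45422275-45551082, + strand, 5603 bases of model) changed most with siLARP4A in MG63. It had 18 and 15 fragments in siControl, 32 and 68 in siLARP4A and 18 and 15 in siLARP4B. Both siLARP4A libraries lay above all others of the line, and siControl and siLARP4B were alike in their fragments. In FPKM the group means were 0.159 ± 0.0264 (SD, n = 2), 0.49 ± 0.231 and 0.153 ± 0.0156. The change with siLARP4A was 1.65 (SE 0.33, 95% interval from 0.97 to 2.33), a fold of 3.14 (edgeR, adjusted p = 0.000574). With siLARP4B it was -0.022 (95% interval from -0.87 to 0.83; edgeR, adjusted p = 0.994). The 2 siLARP4A libraries differed 2.00-fold in FPM, and replicate 2 carried much of the rise. Without it the change was 1.05 and did not pass (edgeR, adjusted p = 0.0529).

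The RUNX2 profile over the 6 MG63 libraries was most like that of RN7SL3 (Pearson r = 0.995), a gene for the 7SL RNA of the signal recognition particle with near-identical copies in the genome. RN7SL3 had 7 and 5 fragments in siControl, 27 and 105 in siLARP4A and 9 and 4 in siLARP4B. Its highest library was also siLARP4A replicate 2. 7SL RNA is made by RNA polymerase III without a poly(A) tail, and its part in the RUNX2 values was not tested. CUEDC1 and ACOT9 were next in likeness (r = 0.988 for both). Such correlations, here and for the other genes, come from a search of about 11783 genes over 6 libraries that form 3 groups, so they describe the profile only.

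**Figure D3:**
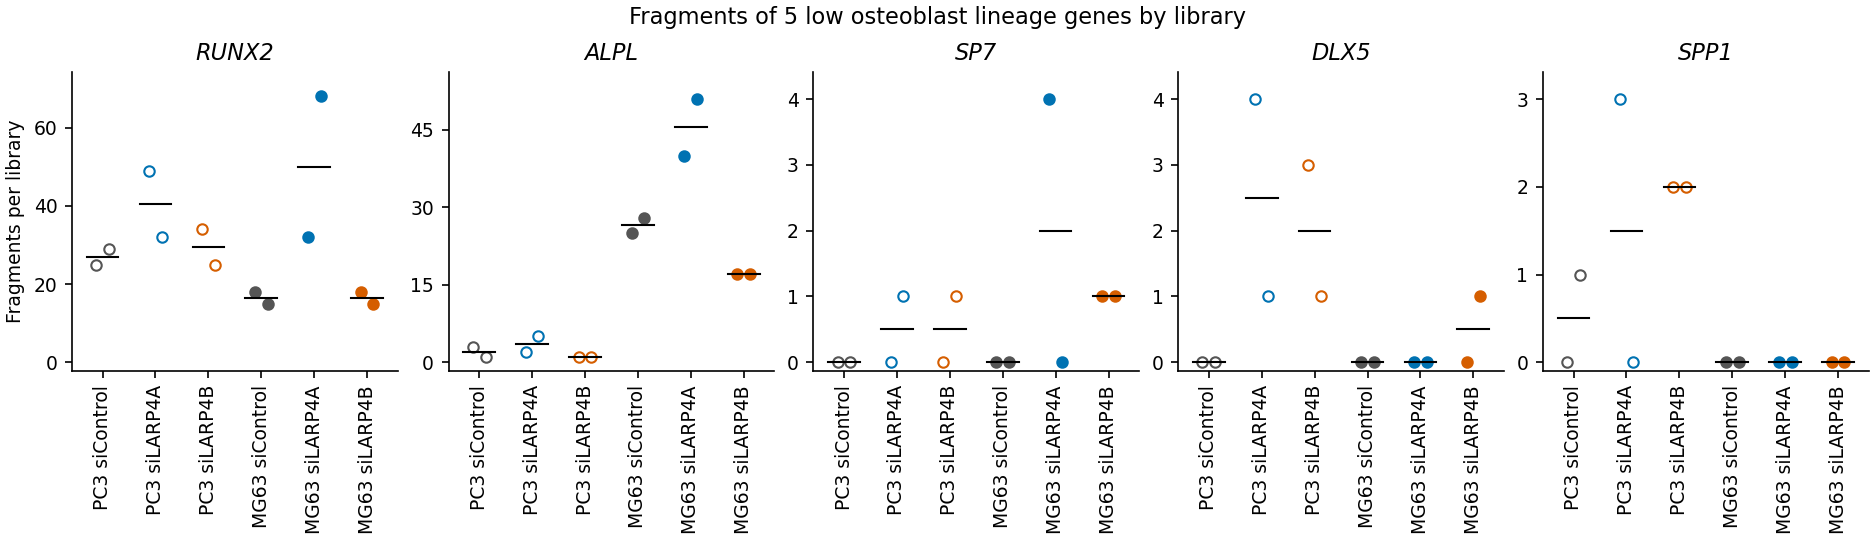
Raw fragments per library of RUNX2, ALPL, SP7, DLX5 and SPP1 in the 6 groups, each panel on its own linear axis; open circles are PC3, filled circles MG63, and bars the mean of 2 libraries. RUNX2 and ALPL reach 68 and 51 fragments in MG63 siLARP4A, and no library has more than 4 fragments of SP7, DLX5 or SPP1.

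DLX3 (chr17:49990005-49995224, - strand), a homeobox factor of bone and ectoderm, moved the other way. It had 295 and 309 fragments in MG63 siControl, 214 and 216 in siLARP4A and 309 and 285 in siLARP4B. The siLARP4A libraries were the lowest of the line and did not overlap either other group. The level was 6.24 ± 0.0324 FPKM (SD, n = 2) in siControl and 4.59 ± 0.167 in siLARP4A, a change of -0.43 (SE 0.11; edgeR, adjusted p = 0.00599). DLX3 did not pass with DESeq2 (adjusted p = 0.054) or with edgeR without MG63 siLARP4A replicate 2 (adjusted p = 0.0579). With siLARP4B the change was -0.045 (95% interval from -0.27 to 0.17; edgeR, adjusted p = 0.792). STAMBPL1, PRKAR1A and FDPS had the profiles most like it (r from 0.997 to 0.999).

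MSX2 (chr5:174724582-174730896, + strand), a homeobox factor that acts in skull and limb bone precursors, had 104 and 123 fragments in MG63 siControl, 91 and 89 in siLARP4A and 145 and 137 in siLARP4B. The 3 groups did not overlap, siLARP4A being lowest and siLARP4B highest. Neither change from siControl passed the test, at -0.27 for siLARP4A (edgeR, adjusted p = 0.202) and 0.29 for siLARP4B (edgeR, adjusted p = 0.108). Between the 2 siRNAs MSX2 differed by -0.56 (SE 0.14), lower with siLARP4A (edgeR, adjusted p = 0.00289). SMARCA5-AS1, PRKG1 and C8orf76 were most like it (r from 0.994 to 0.996).

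SP7 and DLX5 stayed at or near 0. SP7 (chr12:53326576-53344793, - strand), the factor that follows RUNX2, had 4 and 0 fragments in MG63 siLARP4A, 1 and 1 in siLARP4B and 0 in both siControl libraries. The 4 fragments came from a single library, replicate 1, which was not the one with the most RUNX2. DLX5 (chr7:97020396-97024831, - strand), an activator of early osteoblast genes, had 1 fragment over the 6 MG63 libraries, in siLARP4B replicate 2. Neither gene passed the expression filter, and no change of either was detectable at this depth.

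ALPL (chr1:21509423-21578410, + strand), the phosphatase that frees phosphate for mineral, rose with RUNX2. It had 25 and 28 fragments in MG63 siControl, 40 and 51 in siLARP4A and 17 and 17 in siLARP4B. The groups did not overlap, siLARP4A being highest and siLARP4B lowest. From siControl at 0.562 ± 0.0237 FPKM (SD, n = 2), siLARP4A reached 0.993 ± 0.128, a change of 0.84 (SE 0.28, 95% interval from 0.26 to 1.42; edgeR, adjusted p = 0.0283). This call rests on each of its 4 libraries. Without siControl replicate 1 the edgeR adjusted p was 0.144, without siControl replicate 2 it was 0.115, without siLARP4A replicate 1 it was 0.0602 and without siLARP4A replicate 2 it was 0.208. The siLARP4B level, 0.349 ± 0.00939 FPKM, differed from siControl by -0.66 (edgeR, adjusted p = 0.143). Between the 2 siRNAs the difference was 1.50 (SE 0.30), a fold of 2.82 (edgeR, adjusted p = 0.00035). ALPL was most like GATA5 over the MG63 libraries (r = 0.998), which had 75 and 80 fragments in siControl, 101 and 128 in siLARP4A and 57 and 58 in siLARP4B. GLYR1 (r = 0.998) and ZNF594 (r = 0.997) followed.

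Of the matrix genes, POSTN (chr13:37562586-37598768, - strand), a matricellular protein of periosteum that binds integrins and collagen, answered most to siLARP4B in MG63. It had 1824 and 2042 fragments in siControl, 1646 and 1636 in siLARP4A and 3211 and 3178 in siLARP4B. The siLARP4B libraries were far above the others. In FPKM siControl was at 31.5 ± 1.32 (SD, n = 2) and siLARP4B at 50.4 ± 0.988, a change of 0.70 (SE 0.056, 95% interval from 0.59 to 0.82), a fold of 1.63 (edgeR, adjusted p = 2.44e-09). That call held in each of the 21 alternatives. The siLARP4A level of 27.6 ± 1.3 FPKM was a change of -0.17 (SE 0.058; edgeR, adjusted p = 0.0318). This small fall did not pass with DESeq2 (adjusted p = 0.0759), with limma (adjusted p = 0.0516), with edgeR without MG63 siControl replicate 2 (adjusted p = 0.211) or with edgeR without MG63 siLARP4A replicate 2 (adjusted p = 0.24). The 8 POSTN models, which differ in spliced exons, drew 13159 to 13587 fragments each, so isoforms were not told apart. Its profile was most like that of COPB2 (r = 0.9997), a coat protein of Golgi vesicles, followed by LAP3 (r = 0.999) and SLC16A1 (r = 0.999).

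SPARC (chr5:151661096-151686915, - strand), which binds collagen and mineral, had 44965 and 49199 fragments in MG63 siControl, 41515 and 41874 in siLARP4A and 61966 and 53137 in siLARP4B. Groups did not overlap. In FPKM they were at 733.4 ± 18.8 (SD, n = 2), 671 ± 24.7 and 866.3 ± 70.7. The rise with siLARP4B was 0.27 (SE 0.059), a fold of 1.20 (edgeR, adjusted p = 0.0011). With limma on log2(FPKM + 1) it was 0.24 and did not pass (adjusted p = 0.0661). With siLARP4A the change was -0.11 (95% interval from -0.23 to 0.013; edgeR, adjusted p = 0.189). It passed in 4 alternatives, with adjusted p from 0.000312 to 0.0471 in edgeR. CLMAT3 overlaps SPARC on the other strand, and whether the counting used strand is not given in the sources used here. TRAPPC2L, EPS15L1 and AIFM1 were most like it (r from 0.996 to 0.998).

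SPP1 (chr4:87975650-87983411, + strand), an acidic matrix phosphoprotein of later osteoblasts, had 0 fragments in all 6 MG63 libraries. Over 111685964 fragments this allows up to 0.0269 FPM. PC3 had 0 to 3 fragments per library.

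TNFRSF11B (chr8:118923557-118951885, - strand) had the lowest adjusted p of the 7 tested genes with siLARP4A in MG63. It had 2297 and 2269 fragments in MG63 siControl, 820 and 937 in siLARP4A and 3047 and 3304 in siLARP4B. Every siLARP4A library lay below, and every siLARP4B library above, both siControl libraries. The level went from 58.9 ± 2.75 FPKM (SD, n = 2) in siControl to 23.3 ± 1.2 with siLARP4A, a change of -1.32 (SE 0.074, 95% interval from -1.47 to -1.16), to 0.402 of the siControl level (edgeR, adjusted p = 2.73e-11). With siLARP4B it was 79.2 ± 6.66 FPKM, a change of 0.46 (SE 0.068), a fold of 1.37 (edgeR, adjusted p = 1.8e-05). Both calls held in each of the 21 alternatives. JPT2 and NOL11 had the most similar profiles (r = 0.999 for both), followed by CANX (r = 0.998).

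In the direct comparison of the siRNAs in MG63, each of the 7 tested genes passed the test. RUNX2 (1.67; edgeR, adjusted p = 0.000229) and ALPL were higher with siLARP4A than with siLARP4B. TNFRSF11B (-1.77; edgeR, adjusted p = 3.75e-14), POSTN (-0.88; edgeR, adjusted p = 5.02e-11), MSX2, SPARC (-0.38; edgeR, adjusted p = 1.81e-05) and DLX3 (-0.38; edgeR, adjusted p = 0.00772) were lower. That is 2 higher and 5 lower, where 22.1% of the tested genes were higher, 21.5% lower and 43.6% different. The DLX3 difference did not pass with edgeR without MG63 siLARP4A replicate 2 (adjusted p = 0.0669) or with DESeq2 (adjusted p = 0.0681).

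In PC3 the lineage genes were mostly low, yet SPARC moved more than in MG63. SPARC had 331 and 273 fragments in PC3 siControl, 256 and 172 in siLARP4A and 663 and 583 in siLARP4B. In FPKM the groups were at 4.75 ± 0.839 (SD, n = 2), 2.81 ± 0.252 and 10.0 ± 0.0416, without overlap. The change was -0.76 (SE 0.11) with siLARP4A (edgeR, adjusted p = 1.1e-05) and 1.04 (SE 0.093) with siLARP4B, a fold of 2.05 (edgeR, adjusted p = 6.02e-09). Set against MG63, the siLARP4A change differed between lines by 0.65 (edgeR interaction, adjusted p = 0.00139) and the siLARP4B change by -0.77 (edgeR interaction, adjusted p = 1.88e-05), so both were larger in size in PC3.

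TNFRSF11B in PC3 had 68 and 104 fragments in siControl, 61 and 54 in siLARP4A and 106 and 104 in siLARP4B. The 2 siControl libraries lay apart, and siLARP4A was below both. The change with siLARP4A was -0.83 (SE 0.19; edgeR, adjusted p = 0.00142), and without PC3 siControl replicate 2 it was -0.52 (edgeR, adjusted p = 0.096). It did not differ from the change in MG63 by the test (difference -0.48, 95% interval from -0.92 to -0.051; edgeR interaction, adjusted p = 0.153). Without PC3 siControl replicate 2 that difference was -0.81 and passed (edgeR, adjusted p = 0.0321), and it passed with limma on all libraries (-0.81, adjusted p = 0.00904). With siLARP4B the change was 0.28 (edgeR, adjusted p = 0.18), and 0.60 without PC3 siControl replicate 2 (edgeR, adjusted p = 0.0237).

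POSTN had 11 and 9 fragments in PC3 siControl, 3 and 1 in siLARP4A and 15 and 11 in siLARP4B. The ratio of siLARP4A to siControl was 0.169 in FPM (exact 95% interval from 0.042 to 0.504), and the fitted change was -2.49 (edgeR, adjusted p = 0.00118). It exceeded the small fall in MG63 by 2.32 on the log2 scale (edgeR interaction, adjusted p = 0.00871), a difference lost without PC3 siControl replicate 1 (edgeR, adjusted p = 0.089) or PC3 siLARP4A replicate 2 (edgeR, adjusted p = 0.0728). For POSTN and siLARP4B in PC3 the change was 0.37 (edgeR, adjusted p = 0.502).

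DLX3 had 0 and 1 fragments in PC3 siControl, 8 and 7 in siLARP4A and 5 and 3 in siLARP4B. The siRNA groups did not overlap siControl, but the ratio over siControl rests on its single fragment. It was 12.7 in FPM with siLARP4A (exact 95% interval from 1.95 to 533.1) and 8.20 with siLARP4B (from 1.10 to 363.7). The fit called both higher (edgeR, adjusted p = 0.00334 and 0.0317). Without PC3 siControl replicate 1 neither passed (edgeR, adjusted p = 0.0565 and 0.202), and without PC3 siLARP4B replicate 1 the siLARP4B call was lost (edgeR, adjusted p = 0.158). Neither passed with limma (adjusted p = 0.0515 and 0.186), and the siLARP4B change did not pass with DESeq2 (adjusted p = 0.108).

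RUNX2 had 25 and 29 fragments in PC3 siControl, 49 and 32 in siLARP4A, the group with the deepest library, and 34 and 25 in siLARP4B. Neither change passed, at 0.33 (edgeR, adjusted p = 0.449) and 0.12 (edgeR, adjusted p = 0.802). The siLARP4A change in MG63 exceeded that in PC3 by 1.33 (95% interval from 0.37 to 2.28), which did not pass over all genes (edgeR interaction, adjusted p = 0.0671). It passed in 2 of the 20 alternatives that gave a value, with no expression filter (edgeR, adjusted p = 0.0189) and without MG63 siLARP4A replicate 1. The latter fit keeps only the MG63 siLARP4A library with 68 fragments and gave a difference of 1.73. Over the alternatives the difference ran from 0.28 to 1.73. MSX2 had 160 and 161 fragments in PC3 siControl, 235 and 200 in siLARP4A and 160 and 125 in siLARP4B, and neither change passed. ALPL, SP7, DLX5 and SPP1 had 0 to 5 fragments in each PC3 library. In PC3, siLARP4A was called to raise 1 tested gene, DLX3, and lower 3, where 17.0% of the tested genes were called higher, 19.0% lower and 36.0% in either direction. siLARP4B was called to raise 2 and lower 0, where 21.3% were called higher, 23.4% lower and 44.7% in either direction. At an unadjusted p under 0.05 edgeR also gave 2 higher and 0 lower with siLARP4B, and DESeq2 called 1 higher and 0 lower. Between the lines, the siLARP4A change was higher in MG63 for 2 tested genes, SPARC and POSTN, and lower for 1, DLX3, where 7.29% of all tested genes were higher, 4.1% lower and 11.4% in either direction. The siLARP4B change was lower in MG63 for 2, SPARC and DLX3, and higher for 0, where 10.3% were lower, 17.6% higher and 27.9% in either direction. At an unadjusted p under 0.05 edgeR gave 1 higher for that difference, MSX2. limma called 1 higher, POSTN (0.60, adjusted p = 0.000895).

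In 3 wider lists of osteoblast genes, members changed in both directions in MG63. The shares of all tested genes to read their counts against are 14.5% higher and 11.9% lower with siLARP4A, and 18.8% higher and 16.3% lower with siLARP4B. Of 25 further genes of bone matrix and mineralization, 18 were tested. With siLARP4A 6 were higher and 1 was lower (median change -0.051, against 0.010 over all tested genes), and with siLARP4B 5 were higher and 7 lower (median -0.094, against 0.000). Summed FPKM of the list was 2469 and 2512 in siControl, 3296 and 3437 in siLARP4A and 2378 and 2632 in siLARP4B. The type I collagen chains rose with siLARP4A. COL1A1 was at 744 and 745.1 FPKM in siControl and at 1337 and 1295 in siLARP4A, a change of 0.84 (edgeR, adjusted p = 6.13e-11). COL1A2 went from 465.9 ± 11.6 to 646.9 ± 18.8 FPKM (SD, n = 2; change 0.49). COL5A1, which nucleates type I fibrils, went from 73.4 ± 0.447 to 122.6 ± 4.13 FPKM with siLARP4A (0.76) and to 55.5 ± 4.06 with siLARP4B (-0.37). ANKH, a transporter that exports the mineral inhibitor pyrophosphate, was the 1 gene lower with siLARP4A (-0.22), a call lost without MG63 siControl replicate 1, siLARP4A replicate 1 or siLARP4A replicate 2 (edgeR, adjusted p up to 0.162). With siLARP4B, TNC (0.46), the phosphate carrier SLC20A2 (0.35) and the collagen chaperone SERPINH1 (0.34) were higher. The collagen lysyl hydroxylase PLOD2 fell from 67.1 ± 2.64 to 38.7 ± 5.69 FPKM (-0.77; edgeR, adjusted p = 7.91e-08), and the phosphate carrier SLC20A1 fell too (-0.50). PHEX, a phosphate-regulating peptidase gene under 1 FPKM and named after its values were seen, had 79 and 78 fragments in siControl and 43 and 33 in siLARP4B (-1.07). COL5A1 and SLC20A2 overlap other annotated genes.

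Of 26 transcription regulators linked to osteoblasts, 25 were tested. With siLARP4A 3 were higher and 5 lower (median -0.011), against 26.4% of all tested genes called in either direction. With siLARP4B 4 were higher and 6 lower (median -0.040), against 35.1%. CBFB, the partner of RUNX2, was lower with both siRNAs. It was at 23.2 and 24.5 FPKM in MG63 siControl, 16.5 and 16.5 in siLARP4A and 14.1 and 15.5 in siLARP4B, changes of -0.51 (edgeR, adjusted p = 1.96e-06) and -0.66 (edgeR, adjusted p = 4.26e-08). SMAD5, which carries BMP signals to the nucleus, fell from 18.1 ± 0.0507 to 8.93 ± 0.181 FPKM with siLARP4A (SD, n = 2), to 0.499 of its siControl level (edgeR, adjusted p = 1.17e-10), though an antisense gene overlaps it. SMAD4, the shared partner of such SMADs, fell with siLARP4B (-0.52), as did ID2 with siLARP4B (-0.49) and siLARP4A (-0.30). GLI2 (0.43) and KLF4 (0.37) were higher with siLARP4A, and MEF2C (0.43), HDAC4 (0.38) and TWIST2 (0.26) with siLARP4B. Calls that leaving out 1 of their own libraries removed were those of KLF4 (without siControl replicate 1), ID2 with siLARP4A (without siControl replicate 1 or either siLARP4A replicate) and TWIST2 (without siControl replicate 2 or siLARP4B replicate 1). Their edgeR adjusted p rose to 0.0879, 0.119 and 0.159.

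Of 25 osteogenic signals and receptors, 24 had a usable model and 22 were tested. With siLARP4A 8 were higher and 3 lower (median 0.13), against 14.5% higher and 11.9% lower of all tested genes. With siLARP4B 7 were higher and 3 lower (median 0.060), against 18.8% and 16.3%. CSF1, which osteoblasts supply to osteoclast precursors, was at 170.6 and 178.7 FPKM in MG63 siControl, 306.5 and 312.7 in siLARP4A and 156.7 and 161 in siLARP4B. The siLARP4A change was 0.84 (edgeR, adjusted p = 2.05e-10). DKK1 and SFRP1, which encode secreted WNT inhibitors, fell with siLARP4A, DKK1 from 95.8 ± 4.14 to 57.5 ± 1.84 FPKM (SD, n = 2; -0.72; edgeR, adjusted p = 5.06e-10) and SFRP1 from 110.8 ± 5.73 to 77.4 ± 1.18 (-0.50; edgeR, adjusted p = 1.16e-07). FGFR2 (0.73) and the WNT co-receptor LRP6 (0.35) were higher and IGF1R (-0.23) lower with siLARP4A. With siLARP4B, IGF1R (0.50), the vitamin D receptor VDR (0.44) and the BMP receptor ACVR1 (0.36) were higher, and PDGFRB (-0.37), DKK1 (-0.20) and LRP5 (-0.18) lower. Calls removed by leaving out 1 of their own libraries were those of FGFR2 (either siControl replicate or siLARP4A replicate 1), LRP6 (siControl replicate 2 or siLARP4A replicate 2), IGF1R with siLARP4A (siControl replicate 1 or siLARP4A replicate 2), DKK1 with siLARP4B (siControl replicate 1) and LRP5 (either siControl replicate or siLARP4B replicate 2). FGFR2 also lost its call with DESeq2 (adjusted p = 0.12) and LRP6 with limma (adjusted p = 0.0618). The count of 8 includes BMPR1B, named here after its values were seen, which had 7 and 0 fragments in siLARP4A and 0 in siControl. That count was 5 with DESeq2, 4 with limma and 2 to 9 with 1 library left out.

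**Figure D4:**
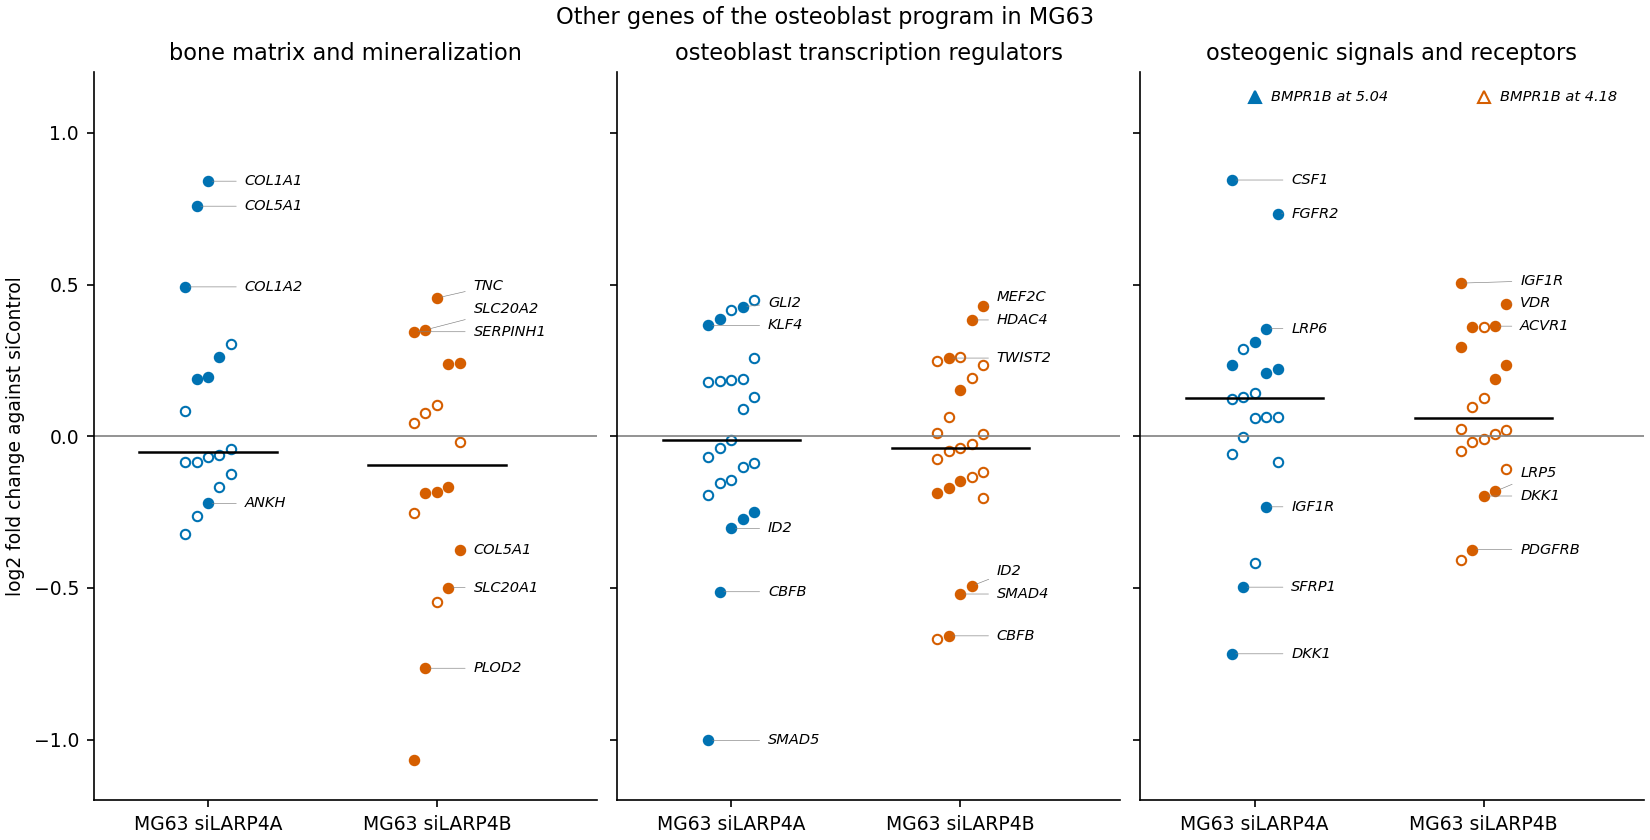
Log2 fold change against siControl in MG63 of the tested genes of 3 further lists, with a bar at each list's median; filled points passed the edgeR test at an adjusted p of 0.05, labels mark the named genes, and triangles mark BMPR1B, which lies above the axis. The medians lie between -0.094 and 0.13, and COL1A1, COL5A1, CSF1 and SMAD5 lie farthest from 0 among the labelled genes for siLARP4A.

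Most markers of neighbouring lineages were under 1 FPKM in MG63 siControl, but some of their regulators were not. RUNX3, SOX9, PPARG and CEBPA (1.48 FPKM) stood above RUNX2 (0.159 FPKM) there, and RUNX3 and SOX9 also above DLX3 (6.24 FPKM). Other markers above RUNX2 included CD14 (2.21 FPKM), CTSK (1.50 FPKM), MATN3 (0.456 FPKM) and DES (0.280 FPKM). Summed FPKM of 7 adipocyte markers was 4.74 and 4.90 in siControl, 7.46 and 8.08 in siLARP4A and 5.42 and 5.57 in siLARP4B. PPARG, the adipocyte regulator, rose from 3.23 ± 0.0618 to 5.87 ± 0.192 FPKM with siLARP4A (SD, n = 2; edgeR, adjusted p = 1.26e-06), beside the rises of RUNX2 and ALPL, and its part in them was not tested. It was at 60.9 FPKM in PC3 siControl. Of 8 chondrocyte markers used, SOX9 (7.23 FPKM) and RUNX3 (10.7 FPKM) were above 1 FPKM in MG63 siControl, and the list's sum ran from 16.8 to 20.5 over the 6 MG63 libraries. The sum of 7 skeletal muscle markers was 0.578 and 0.761 FPKM in siControl, 1.18 and 1.45 in siLARP4A and 0.582 and 0.846 in siLARP4B, and of 2 tested, DES was higher with siLARP4A (edgeR, adjusted p = 0.0103). The sum of 8 blood and osteoclast markers was 3.68 and 4.00 in siControl, 3.92 and 4.01 in siLARP4A and 2.22 and 2.29 in siLARP4B, and of 3 tested, CD14 was lower with siLARP4B (edgeR, adjusted p = 0.0065). The epithelial sum in MG63 fell from 80.4 and 81.4 in siControl to 73.1 and 76.3 in siLARP4A and 63.8 and 66.0 in siLARP4B, and the mesenchymal sum lay between 3399 and 3757 in the siRNA groups, below siControl. Their part in the lineage genes' changes was not tested.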

How the data were processed

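RNA of 12 libraries (6 groups of 2) was analysed. The authors deposited 1 table per library with whole fragment counts, FPM (fragments per 1000000 of the library total, a signal made from the counts by the authors) and FPKM for 86394 transcript models. The submitters' processing notes name FastQC, HISAT2, featureCounts and edgeR and the build hg38, without versions. The annotation and the strand setting are not given in the sources used here. FPM equals the count over the library total and FPKM equals FPM per kilobase of model, both checked on the values. Exons shared by models are counted in each, so the deposited FPM sums to between 3198732 and 3448919.

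Per gene, the model on chromosomes 1 to 22 or X that drew the largest fragment sum across libraries was kept. The 1748 symbols at more than 1 locus or also on other sequences were left out, which left 26415. Counts were tested with edgeR 4.0.16 (R 4.3.3; quasi-likelihood F-test, TMM, filterByExpr, a mean per group over the 12 libraries, 6 residual degrees of freedom plus shared spread). Tests were two-sided, with Benjamini-Hochberg adjustment over 15668 genes in each of 8 comparisons and a threshold of 0.05. The biological coefficient of variation was 4.21%. Where nothing more is known of the cultures, p-values measure the spread between these libraries. Mean ± SD values are FPKM of 2 libraries, log2 changes are from edgeR, and exact intervals (Clopper-Pearson, 95%) cover counting error only. A floor of 3 fragments stands for a count of 0.

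Alternatives were DESeq2 1.42.0, its size factors in edgeR, no expression filter, 1 CPM in 2 libraries, a replicate block, the longest model, limma 3.58.1 on log2(FPKM + 1), only the libraries compared, and the deduplicated table of PC3 siControl replicate 2 (86.6% of model fragments left), plus leaving out each of the 12 libraries.

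The 10 genes and all lists were chosen with earlier results of these data known. The 10 genes and the siRNA targets are always named. Of 3 lists, each siRNA in MG63 names the 3 highest and 3 lowest changes past the threshold with a mean of at least 1 FPKM in either group. Of the other lists, up to 3 of the most abundant genes in MG63 siControl are named, and for a tested gene the 3 with the highest Pearson r of log2 CPM over the 6 MG63 libraries. Some named results are not reported here. Promoter sequences are from RefSeq (GRCh38.p14). For the lineage genes, entries on chromosome 8, where TNFRSF11B lies, were left out, and 6 of the 10 genes had an entry on the other chromosomes. The motif shares and the median GC content were taken over all 35116 promoters, without a filter by chromosome.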

Additional observations from a re-analysis of the deposited data

Results flagged for a closer look

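The effect of an siRNA differed between MG63 and PC3 for 3 of the lineage genes, by the interaction test of edgeR. SPARC was lowered less by siLARP4A in MG63 than in PC3 (difference 0.65 on the log2 scale), and raised less by siLARP4B (difference -0.77). The siLARP4A effect on POSTN differed by 2.32, where PC3 had 3 and 1 fragments after siLARP4A. It was lost without PC3 siControl replicate 1 (adjusted p = 0.089) or PC3 siLARP4A replicate 2 (adjusted p = 0.0728), and with limma it was -0.000394 (adjusted p = 0.998). The effects on DLX3 differed by -3.78 with siLARP4A and by -2.76 with siLARP4B, where PC3 siControl had 0 and 1 fragments. The SPARC differences passed in each of the 21 alternatives. Those of DLX3 did not pass with DESeq2 for siLARP4A (adjusted p = 0.0552) and in 10 of the 21 for siLARP4B (adjusted p up to 0.241).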

How the results depend on the processing

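Of 56 values for lineage genes, 32 passed the threshold; 19 of these passed, in the same direction, in each of the 21 alternatives that gave a value, 13 were lost in at least 1, and 7 others passed in at least 1. Of 34 values for further named genes, 24 held in each alternative and 10 were lost in at least 1. The cause of a lost call was not tested. For MG63 siLARP4A against siControl, DESeq2 called 1 lineage gene higher and 1 lower (it gave ALPL no adjusted p). For MG63 siLARP4B against siControl, limma called 1 lower. For PC3 siLARP4A, limma and the fit of only the libraries compared called 0 higher (the second tested neither DLX3 nor POSTN there). For PC3 siLARP4B, DESeq2, limma and that fit called 1 higher each. Between the lines in siControl, DESeq2 and the replicate block called 0 lower. For the siLARP4A effect between lines, DESeq2 called 0 lower and limma 2. With limma on log2(FPKM + 1) the POSTN difference was -0.000394 and did not pass (adjusted p = 0.998). For the siLARP4B effect between lines, DESeq2, no expression filter, limma and the deduplicated table called 1 lower each, and limma 1 higher. Over all genes, the siLARP4A effect between lines was called higher in MG63 for 1142 and lower for 642; with a minimum of 1 CPM these were 873 and 899, with the longest model 839 and 898, and with only the libraries compared 846 and 865. For siLARP4B they were 2750 and 1615, against 2214 and 2000 with 1 CPM and 2202 and 2631 with limma. With only the libraries compared, siLARP4A lowered 3 matrix genes (1 otherwise) and raised 5 and lowered 8 regulators (3 and 5 otherwise).

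Leaving out 1 library at a time gave, for MG63 siLARP4A, 0 to 2 lineage genes higher and 1 to 4 lower of 2698 to 4759 genes called; for MG63 siLARP4B, 3 higher and 0 lower of 3877 to 5989; for siLARP4A against siLARP4B in MG63, 4 to 5 lower of 5390 to 7327. For PC3 siLARP4A it gave 0 to 1 higher and 2 to 3 lower of 4211 to 5788, and for PC3 siLARP4B 1 to 3 higher of 5578 to 7570. Between lines it gave 0 to 1 lower of 12179 to 13142; for the siLARP4A effect 1 to 3 higher and 1 to 2 lower of 1049 to 2034; for the siLARP4B effect 1 to 2 lower of 3278 to 4782. Genes called for MG63 siLARP4A, 4138 with all libraries, fell most without any 1 of the 4 MG63 siControl and siLARP4A libraries. Those for the siLARP4A effect between lines, 1784 with all libraries, fell most without PC3 siControl replicate 1 or any 1 of those 4 libraries.

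The deviations of same-numbered libraries correlated between -0.121 and 0.0827, so no strong shift shared by replicate number was seen. Weak correlation cannot show whether the libraries were paired. With the replicate block, genes called went from 4138 to 3977 for MG63 siLARP4A and from 5497 to 5328 for MG63 siLARP4B, and the one lineage call it changed was that of MSX2 between lines (adjusted p = 0.0526).

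With 2 libraries a group, each gene's spread leans on that of other genes. RUNX2 (15 to 68 fragments per library) and ALPL (up to 51) are near the depth limit, and SP7, DLX5 and SPP1 are below it.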
